A study of Mus musculus with 10 samples.

Results

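Livers of the offspring of LIRKO mothers were compared with livers of the offspring of control parents, across all genes of a deposited table of RNA sequencing counts. LIRKO mice (liver insulin receptor knockout) carry a floxed insulin receptor gene on both alleles (IRlox/lox) and 1 copy of a Cre transgene driven by the Albumin promoter (Albumin-Cre+/-), which acts in hepatocytes and leaves the receptor in other cells. The ML libraries (ML 8, ML 9 and ML 10) are livers of first-generation offspring of a LIRKO female and a control male. The control libraries (control 1 to 4) are livers of offspring of 2 control parents, IRlox/lox without the transgene (Albumin-Cre-/-). Per the labels, the line of control parents had been crossed among itself for 4 generations to limit an inherited effect of the transgene. The floxed receptor alleles are therefore shared by every parent. The other group of the series, FL (FL 5, FL 6 and FL 7), had a LIRKO father and a control mother. The comparison uses 7 of the 10 libraries, and 14820 of the 46071 genes in the table had enough counts to be tested. Genotype, age, litter, diet and time of collection of the offspring themselves are missing from the labels, so whether an ML liver carried the transgene is not known here. Sex is not labelled either; the Y-linked gene Ddx3y had 1349 to 3088 counts in the 10 libraries. The labels do not say that every library is its own animal, and the p-values measure only the spread from library to library.

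The insulin receptor on hepatocytes passes the insulin signal through its substrates IRS1 and IRS2 to the kinase AKT, which shuts FOXO1 out of the nucleus and raises processing of the transcription factor SREBP1c. In the fed liver this lowers glucose output and raises glycogen and fatty acid synthesis. Cholesterol synthesis genes are driven by the related factor SREBP2. Immediate early genes, such as Fos and Egr1, are transcribed within minutes of a growth factor, hormone or stress signal, through serum response factor and CREB, and need no new protein for it.

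The comparison asks whether livers of mice born to a mother without hepatic insulin receptor differ in gene expression from control livers. Control 1 had 18655506 counts, controls 2 to 4 had 37292273 to 39379940, and the ML libraries had 33093880, 26614915 and 34568205 in ML 8, ML 9 and ML 10. Levels are given as CPM, counts scaled to library size and by TMM factors, which were 0.577 in ML 9 and 0.933 to 1.15 in the other 6. The 8 hepatocyte markers, Alb and Hnf4a among them, were present in each of the 7 libraries, summing to 65093 to 87082 CPM in controls and 56008 to 102359 CPM in ML. ML 9 and control 1 were rich in short transcripts. For the 1249 genes shorter than 1000 bp of exon, the median log2 deviation from the control mean was 1.84 in ML 9 and 0.66 in control 1, against 0.11 in ML 8, 0.53 in ML 10 and -0.32 to -0.17 in the other controls. The 2307 genes with 8000 bp or more lay at -0.86 in ML 9 and -0.50 in control 1. Results are therefore given with and without ML 9, and where it matters after each library's dependence on exon length and GC was fitted and taken out (called the trend removed).

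**Figure D1:**
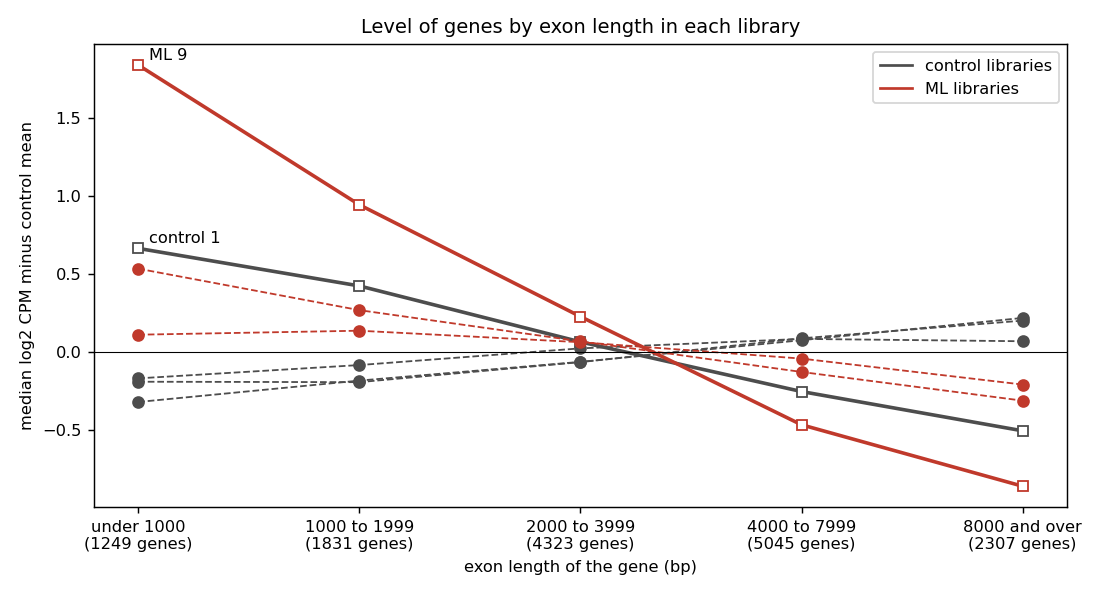
Median level of the tested genes in 5 classes of exon length, as log2 CPM minus the gene's mean over the 4 controls, for each control (grey) and ML (red) library. Solid lines with open squares are control 1 and ML 9. ML 9 falls from 1.84 for the shortest genes to -0.86 for the longest, and control 1 from 0.66 to -0.50.

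The transcript of the insulin receptor itself was present in every ML library. Insr (ENSMUSG00000005534, chromosome 8, 3122061 to 3279617) was at 62.9, 82.2, 128 and 69.1 CPM in controls 1 to 4 and 54.4, 28.2 and 55.2 CPM in ML 8, ML 9 and ML 10. The groups did not overlap, and ML 9 was the lowest. The log2 fold change was -0.90 (SE 0.34), or -0.63 (SE 0.33) without ML 9, and -0.34 with the trend removed. It did not pass the test. Which exons Cre removes is not in the labels, and a sum over all exons can only partly show a deletion.

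No gene passed between ML and control at an adjusted p under 0.05 in edgeR's quasi-likelihood test (0% of 14820 genes, lowest adjusted p 0.301), nor without ML 9 (0% of 15305 genes, lowest adjusted p 0.867). The genes named below are those with the lowest p and members of the gene lists, all with an adjusted p at or above 0.301, and none of their differences is established by this test. DESeq2 called 56 genes on the same counts, 15 higher and 41 lower in ML. It was given the 26713 genes with any count and adjusted its p-values over fewer of them. Testing all genes with no filter on low counts, edgeR called 3, Nr4a1 and Fosb lower and Tff2 higher, and without control 1 it called 1, Fosb.

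An unadjusted p under 0.05 was reached by 2392 genes (16.1%), 1306 higher in ML (8.81%) and 1086 lower (7.33%). Without ML 9 there were 669 (4.37%), 142 higher (0.928%) and 527 lower (3.44%). The 3 ML and 4 control libraries did not overlap for 746 genes (5.03%), 2.86% lower and 2.17% higher in ML; without ML 9 the shares were 9.47%, 5.24% and 4.23%. The higher and lower genes leaned on ML 9 to a different degree. Of the 1306 genes higher in ML, 90 were also among the 142 without ML 9, 6.89% of the first set and 63.4% of the second. Of the 1086 lower genes, 382 were also among the 527, 35.2% and 72.5%. ML 9 was the ML library farthest from the control mean for 95.5% of the higher genes and 67.8% of the lower ones. The higher genes were short, with a median exon length of 1591.5 bp, and the lower genes long, with a median of 6018.5 bp, where all tested genes had a median of 3984 bp. Without ML 9 these medians were 2939 and 4077.5 bp. Single controls moved the count of 2392 as well: it was 5177 when control 1 was left out, 1093 for control 2, 1487 for control 3 and 1114 for control 4. The lower genes among these numbered 2509, 510, 943 and 570, of 14758, 14550, 14723 and 14504 genes tested.

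Immediate early genes were low in the livers of the offspring of LIRKO mothers, and Egr1, Nr4a1, Fos and Jun were under the control range in each of the 3. Of the 30 tested members of the list, 29 lay below 0 in ML against control, at a median log2 fold change of -1.61, where 52.9% of all genes lay below 0 at a median of -0.047. In 18 of the 30 the unadjusted p was under 0.05 and the level lower in ML, as in 7.33% of all genes. In 11 the 3 ML libraries all lay under the 4 controls, as in 2.86% of all genes. Without ML 9, 30 of 31 lay below 0 at a median of -1.86, 13 of them at an unadjusted p under 0.05 (all genes 3.44%). DESeq2 called 8 members of the list lower, where it called 41 of the 26713 genes with any count lower, not all of which were tested. Across the fits that leave out 1 library the median ran from -2.16 without ML 10 to -0.99 without control 2.

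Egr1, a zinc finger factor induced by mitogens and by insulin (ENSMUSG00000038418, chromosome 18, 34859823 to 34864984), was at 47.0, 75.4, 210.2 and 227 CPM in controls 1 to 4 and 0.893, 0.456 and 1.43 CPM in ML 8, ML 9 and ML 10. The lowest control stood far above the highest ML library, although the controls also differed among themselves. The log2 fold change was -7.19 (SE 1.18), and -6.90 (SE 1.42) without ML 9. Nr4a1, an orphan nuclear receptor that responds to glucagon and stress (ENSMUSG00000023034, chromosome 15, 101254269 to 101274795), was at 11.7, 20.0, 15.1 and 6.88 CPM in controls and 0.525, 0.652 and 1.30 CPM in ML. All 3 ML libraries were close together and under every control, where ML minus control on the log2 scale was -4.0 (SE 0.64), or -3.86 (SE 0.76) without ML 9. Fos, a subunit of the AP-1 factor (ENSMUSG00000021250, chromosome 12, 85473890 to 85477273), was at 2.34, 9.91, 16 and 16.3 CPM in controls and 0.420, 0.196 and 0.682 CPM in ML. Control 1 was the lowest control and still above the ML libraries, and the log2 fold change was -4.62 (SE 0.88), or -4.32 (SE 1.02) without ML 9. Its relative Fosb had 4, 51, 160 and 134 counts in controls and 1, 0 and 1 counts in ML, too few in ML for a fold. Jun, the partner of Fos in AP-1, was at 29.3, 97.1, 178 and 67.7 CPM in controls and 9.98, 10.2 and 18.3 CPM in ML. The groups did not overlap, and the log2 fold change was -2.86 (SE 0.58), or -2.71 (SE 0.68) without ML 9.

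Other members separated less widely or with more spread among the controls. Ccn1, a secreted matrix protein, was at 16.3, 6.19, 17.8 and 13.0 CPM in controls and 4.6, 5.67 and 2.42 CPM in ML, without overlap but with control 2 close to ML 9. Its log2 fold change was -1.66 (SE 0.43), or -1.90 (SE 0.49) without ML 9. Junb, another AP-1 subunit, was at 25.4, 135, 53.1 and 50.5 CPM in controls and 19.4, 10.1 and 12 CPM in ML, again without overlap. Btg2, an antiproliferative gene, was at 10.8, 224, 39.4 and 33.4 CPM in controls and 10.6, 2.80 and 9.86 CPM in ML. Control 2 stood far above the other controls and control 1 barely above ML 8, and the log2 fold change of -3.30 (SE 0.98) was -1.83 without control 2. Dusp6, a phosphatase that turns off ERK signalling, was at 59.0, 61.0, 78.9 and 53.3 CPM in controls and 19.5, 7.30 and 37.4 CPM in ML. Ier5 was the 1 tested member above 0, at 1.45 to 6.19 CPM in controls and 4.62 to 6.13 CPM in ML, which overlapped.

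**Figure D2:**
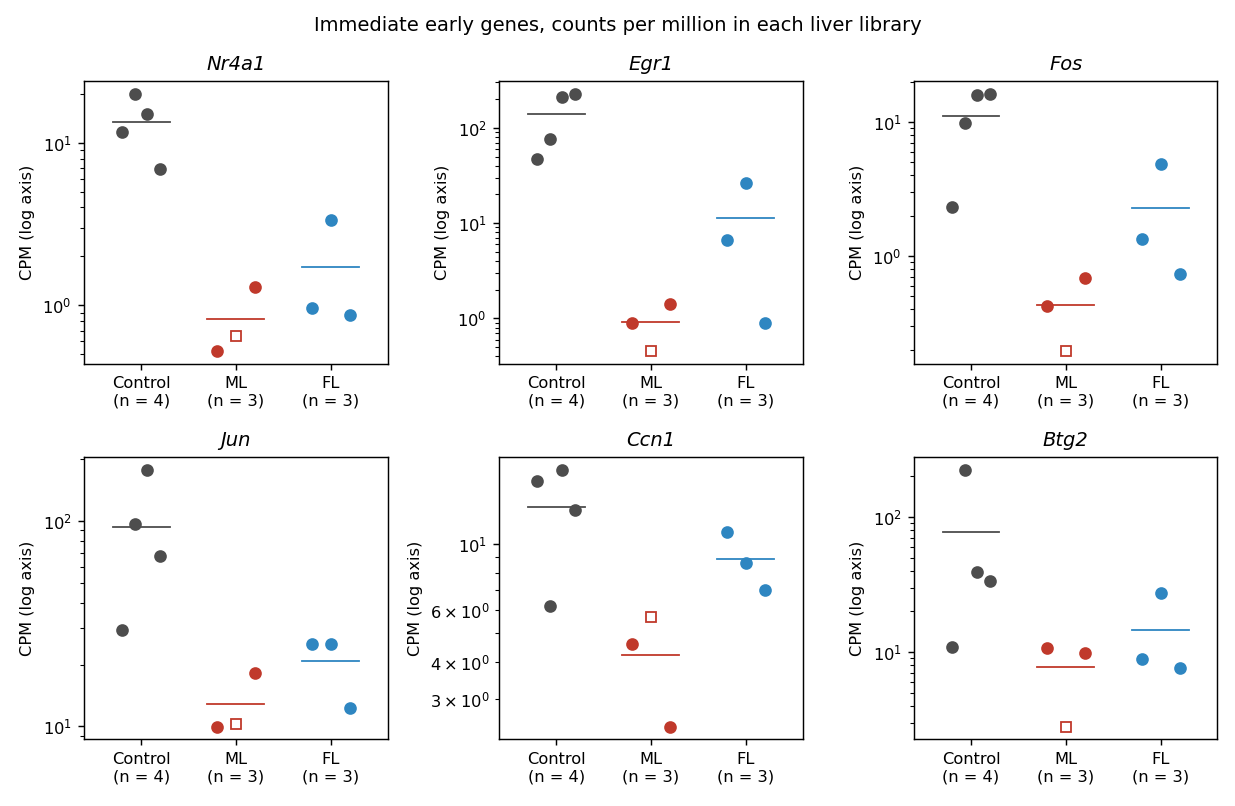
CPM (log axis) of 6 immediate early genes in each library of the control, ML and FL groups; points are libraries, the open square is ML 9 and lines are group means. The 3 ML libraries lie under the 4 controls for each gene shown, with Egr1 at 0.456 to 1.43 CPM in ML and 47.0 to 227 CPM in controls.

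CREB binds the cAMP response element, whose core is TGACGT. The promoters of Fos and Btg2 are shown because both carry that core in the 300 bases from 250 before to 50 after the start of transcription; capitals mark it. The window of Fos is chr12:85473640-85473939, plus strand, and that of Btg2 is chr1:134079106-134079405, minus strand (RefSeq, GRCm38.p6). In Btg2 the capitals are 2 overlapping cores on opposite strands, which together make the full palindrome.
Fos: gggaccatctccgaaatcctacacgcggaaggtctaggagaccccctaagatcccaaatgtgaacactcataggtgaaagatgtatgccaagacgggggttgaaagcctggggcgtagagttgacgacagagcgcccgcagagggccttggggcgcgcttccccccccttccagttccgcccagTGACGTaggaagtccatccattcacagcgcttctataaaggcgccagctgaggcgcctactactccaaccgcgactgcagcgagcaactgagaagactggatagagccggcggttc
Btg2: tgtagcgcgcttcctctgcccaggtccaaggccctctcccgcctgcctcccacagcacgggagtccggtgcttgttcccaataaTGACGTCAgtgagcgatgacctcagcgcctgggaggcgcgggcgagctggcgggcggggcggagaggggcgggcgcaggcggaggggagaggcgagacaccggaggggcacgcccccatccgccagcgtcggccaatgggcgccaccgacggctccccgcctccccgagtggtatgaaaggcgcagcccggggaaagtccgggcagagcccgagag
Searched on both strands as TGACGT, the core was found in 8 of the 27 list members with a promoter in the RefSeq table (Atf3, Btg2, Ccn1, Dusp1, Egr2, Fos, Nr4a3 and Per1), 29.6%, and in 8.37% of all 27025 genes of that table. A match describes the letters in this window and not the binding of a factor.

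Some genes outside the list of immediate early genes were also low in each ML liver. Gdf15, a secreted stress-induced cytokine of the TGF-beta family (ENSMUSG00000038508, chromosome 8, 70629393 to 70632456), was at 22.5, 90.0, 97.3 and 28.0 CPM in controls and 3.02, 6.85 and 5.15 CPM in ML. The groups did not overlap, and the log2 fold change was -3.58 (SE 0.73), or -3.85 (SE 0.89) without ML 9. Hspa1a, an inducible heat shock protein, was at 0.342, 1.58, 2.15 and 3.74 CPM in controls and 0.184, 0.261 and 0.279 CPM in ML, at -3.03 (SE 0.78). For each of these the 3 ML libraries lay under the 4 controls. Rgs1, a regulator of G protein signalling found in immune cells, was at 7.18, 7.31, 5.82 and 2.74 CPM in controls and 1.29, 1.5 and 1.86 CPM in ML. Frmd4b, a scaffold protein, was at 37.5, 92.7, 46.1 and 59.6 CPM in controls and 17.2, 9.06 and 20.2 CPM in ML, and Syne1, a very long transcript for a nuclear envelope protein, at 9.29, 12.7, 17.8 and 22.0 and 5.46, 3.85 and 5.02 CPM. Their log2 fold changes were -1.89 (SE 0.41), -1.93 (SE 0.40) and -1.69 (SE 0.39), and with the trend removed that of Syne1 was -0.76. The 20 tested heat shock genes had a median of -0.24, or -0.06 without ML 9.

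Part of the fatty acid synthesis genes lay lower in ML, Scd1 and Fasn among them. Of the 27 tested lipogenesis genes, 21 lay below 0 at a median of -0.62; 11 were lower and 2 higher at an unadjusted p under 0.05, and 7 had ML libraries that all lay under the controls. The shares over all genes were 7.33%, 8.81% and 2.86%. Without ML 9 the median was -0.34, with 10 lower and 0 higher (all genes 3.44% and 0.928%). DESeq2 called 4 of them lower, Scd1, Elovl5, Fasn and Acacb. It called 41 of the 26713 genes with any count lower, not all of which were tested.

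Scd1, the desaturase that makes oleate and palmitoleate (ENSMUSG00000037071, chromosome 19, 44394455 to 44407879), was at 12469.6, 9819.9, 2611 and 5893 CPM in controls and 2066, 718 and 1343 CPM in ML. The groups did not overlap, with control 3 the lowest control, and the log2 fold change was -2.48 (SE 0.55), or -2.16 (SE 0.58) without ML 9. Elovl5, which lengthens polyunsaturated fatty acids (ENSMUSG00000032349, chromosome 9, 77917364 to 77984519), was at 558, 559.8, 186 and 409 CPM in controls and 163, 123 and 99.7 CPM in ML. Control 3 was near ML 8, and the log2 fold change was -1.73 (SE 0.40), or -1.69 (SE 0.46) without ML 9. Fasn, fatty acid synthase (ENSMUSG00000025153, chromosome 11, 120805846 to 120824547), was at 216, 353, 242 and 619 CPM in controls and 125, 59.5 and 32.6 CPM in ML, without overlap, at -2.30 (SE 0.56), or -2.16 (SE 0.66) without ML 9. Acacb, the acetyl-CoA carboxylase whose product holds back mitochondrial fatty acid uptake, was at 37.0, 148, 37.4 and 86.9 CPM in controls and 25.9, 14.0 and 12.6 CPM in ML, at -2.14 (SE 0.52). The steps that supply acetyl-CoA went the same way: Acly was at 187 to 272 CPM in controls and 56.9 to 168 CPM in ML, and Acss2 at 118 to 172 and 51.6 to 83.1 CPM. The gene of the regulator SREBP1, Srebf1, was at 99.4 to 302 CPM in controls and 99.0 to 199 CPM in ML, which overlapped, with a log2 fold change of -0.46 (SE 0.39). The 2 members higher at an unadjusted p under 0.05 were the sterol sensor Nr1h3 and the acyltransferase Agpat2, and ML 9 set both: Nr1h3 was at 1.19 with ML 9 and 0.43 without it, and Agpat2 at 0.99 and 0.43.

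Cholesterol synthesis genes lay lower as a whole list. Of 27 tested, 25 lay below 0 at a median of -1.01, the exceptions being Ebp and Tm7sf2. At an unadjusted p under 0.05, 13 were lower with none higher (all genes 7.33% and 8.81%). Without ML 9 all 27 lay below 0 at a median of -0.86, 10 of them at an unadjusted p under 0.05 (all genes 3.44%). With the trend on length and GC removed the median was -0.96. The count of 13 was 7 without ML 10 and 8 without control 3. Of all genes tested in these fits, 623 of 15326 and 943 of 14723 were lower at an unadjusted p under 0.05. DESeq2 called none of the list.

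Hmgcs1, the synthase of an early step (ENSMUSG00000093930, chromosome 13, 119690379 to 119708260), was at 157, 115, 462 and 257 CPM in controls and 101, 38.1 and 40.1 CPM in ML, at -2.05 (SE 0.57), or -1.79 (SE 0.65) without ML 9. The highest ML library was ML 8 and lay under the lowest control. Dhcr7, the last step to cholesterol, was at 56.8, 73.9, 117 and 77.4 CPM in controls and 45.7, 25.2 and 18.4 CPM in ML, at -1.45 (SE 0.38), or -1.32 (SE 0.42) without ML 9. Msmo1, a sterol oxidase, was at 167, 89.3, 315 and 134 CPM in controls and 101, 54.8 and 34.5 CPM in ML, where ML 8 overlapped the controls.

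**Figure D3:**
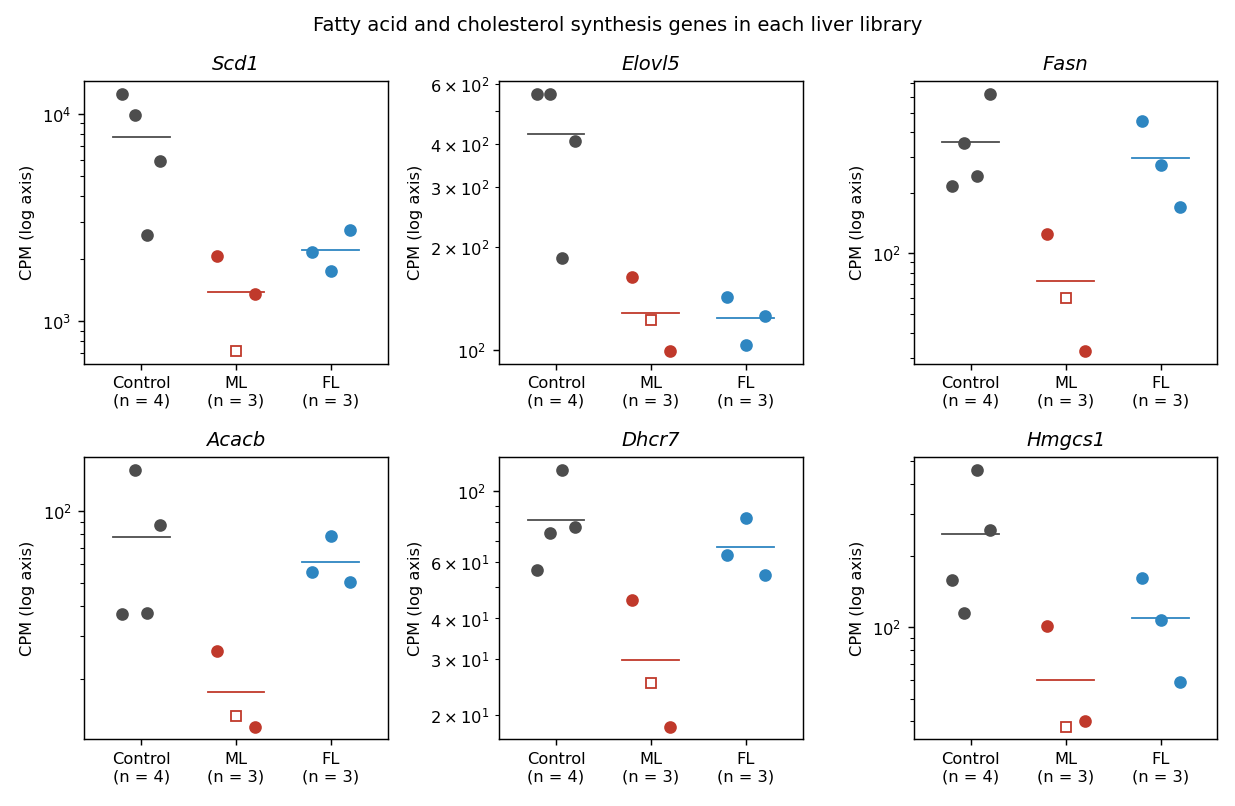
CPM (log axis) of 4 fatty acid synthesis genes and 2 cholesterol synthesis genes (Dhcr7 and Hmgcs1) in each library; points are libraries, the open square is ML 9 and lines are group means. The ML libraries lie under the controls for each gene, with Scd1 at 718 to 2066 CPM in ML and 2611 to 12469.6 CPM in controls.

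SREBP factors bind the sterol regulatory element, TCACCCCAC in its classical form. The promoter of Hmgcs1 (chr13:119690101-119690400, plus strand, RefSeq, GRCm38.p6) is shown because it alone among the 19 list members with a promoter in that table holds these letters; capitals mark the element and, a few bases before it, a TGACGT core on the opposite strand.
Hmgcs1: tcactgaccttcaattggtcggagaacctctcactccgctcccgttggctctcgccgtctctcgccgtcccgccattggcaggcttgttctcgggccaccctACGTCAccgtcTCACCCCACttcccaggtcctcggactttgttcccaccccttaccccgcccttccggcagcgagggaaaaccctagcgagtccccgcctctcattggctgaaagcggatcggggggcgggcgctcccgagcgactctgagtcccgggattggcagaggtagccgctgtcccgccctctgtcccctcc
On either strand, TCACCCCAC was found in 0.614% of all genes with a promoter in the table.

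Genes that hepatocytes switch on in fasting and insulin switches off did not lie higher in ML. Of 19 tested gluconeogenesis genes and FOXO1 targets, 14 lay below 0 at a median of -0.49. At an unadjusted p under 0.05, 4 were lower and 0 higher (all genes 7.33% and 8.81%). Without ML 9 the median was -0.29, and 3 of the 4 (Igfbp1, Irs2 and Pdk4, without G6pc) kept such a p (all genes 3.44%). Without ML 10 there were 6, where 623 of all 15326 genes tested were lower at such a p. Igfbp1, a secreted binding protein of insulin-like growth factors that insulin represses (ENSMUSG00000020429, chromosome 11, 7197782 to 7202546), was at 245, 1596, 521 and 435 CPM in controls and 7.04, 20.5 and 159.8 CPM in ML. ML 10 was several times above the other ML libraries and still under every control, and the log2 fold change of -3.48 (SE 1.09) was -5.68 without ML 10. Irs2, the receptor substrate that FOXO1 induces, was at 0.912, 12.8, 15.5 and 9.37 CPM in controls and 1.16, 0.0652 and 2.08 CPM in ML, where control 1 lay among the ML libraries, at -3.08 (SE 0.93). Pdk4, which blocks pyruvate oxidation in fasting, was at 3.76, 51.3, 12.9 and 8.23 CPM in controls and 1.92, 1.63 and 3.94 CPM in ML, at -2.92 (SE 0.79), or -1.72 without control 2. G6pc, glucose 6-phosphatase, was at 835, 627, 986 and 1001 CPM in controls and 187, 131 and 735 CPM in ML. ML 8 and ML 9 were low and ML 10 lay within the controls. Pck1, the other gene of glucose output, was at 923 to 4904 CPM in controls and 418 to 2639 CPM in ML, which overlapped.

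Ppp1r3g, which targets protein phosphatase 1 to glycogen and is known to respond to fasting and feeding (ENSMUSG00000050423, chromosome 13, 35958839 to 35970388), had one of the clearest separations. It was at 50.8, 33.0, 35.4 and 36.4 CPM in controls and 0.105, 1.5 and 6.36 CPM in ML. The controls were close together, the ML libraries spread over a wide range, and the groups did not overlap. Its log2 fold change was -3.86 (SE 0.90), or -3.58 (SE 1.05) without ML 9, -5.76 without ML 10 and -3.28 without ML 8. DESeq2 gave no p for Ppp1r3g. Of the 22 tested genes of glycolysis and glycogen, Ppp1r3g was the 1 lower at an unadjusted p under 0.05, with and without ML 9. Of all genes, 7.33% were lower at such a p, and 3.44% without ML 9. Of the 22, 1 was higher at such a p in each fit (all genes 8.81% and 0.928%). Ppp1r3c, another glycogen-targeting subunit, was at 41.5, 48.2, 23.8 and 44.4 CPM in controls and 31.0, 22.0 and 166 CPM in ML, ML 10 alone standing above the controls.

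In the insulin signalling list, 27 of 29 lay below 0 at a median of -0.63, or -0.34 without ML 9 and -0.25 with the trend removed. These are long genes, with a median exon length of 9088 bp. At an unadjusted p under 0.05, 4 were lower, Insr, Irs2, Tsc1 and Trib3 (all genes 7.33%). The count was 2 without ML 9 (Irs2 and Trib3), where 3.44% of all genes were lower at such a p. It was 6 without ML 10 and 11 without control 1, where 623 of 15326 and 2509 of 14758 genes tested were. Trib3, an inhibitor of AKT, was at 11.9, 10.9, 8.20 and 7.91 CPM in controls and 5.31, 2.87 and 3.69 CPM in ML, without overlap, at -1.29 (SE 0.38). Tsc1, which holds back mTOR, was at -1.15, or -0.55 with the trend removed.

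No clock gene passed the test, and those with the lowest p lay in both directions. Of 23 tested, 5 were lower and 3 higher at an unadjusted p under 0.05 (all genes 7.33% and 8.81%). Without ML 9 there were 2 and 3 (all genes 3.44% and 0.928%), and the list median went from -0.36 to -0.03. The lower ones without control 2 numbered 2, and the higher ones without ML 10 numbered 1. In these fits 510 of 14550 genes tested were lower and 1628 of 15326 higher at an unadjusted p under 0.05. Bhlhe40, a repressor that responds to light, feeding and insulin, was at 81.8, 181, 158 and 96.3 CPM in controls and 51.2, 14.9 and 46.2 CPM in ML, without overlap, at -1.79 (SE 0.47), or -1.39 (SE 0.41) without ML 9. Nr1d1, the clock repressor REV-ERB alpha, was at 6.78, 42.0, 34.0 and 73.8 CPM in controls and 13.6, 2.15 and 3.44 CPM in ML. Control 1 was the lowest control and lay under ML 8, and the log2 fold change was -2.60 (SE 0.85). Cry1, a repressor of CLOCK and BMAL1, was at 6.44, 8.38, 5.02 and 6.28 CPM in controls and 12.5, 11.5 and 22.7 CPM in ML, every ML library being above every control, at 1.25 (SE 0.41), or 1.44 (SE 0.43) without ML 9. Nampt, an enzyme of NAD synthesis under clock control, was at 1.19 (SE 0.43), with ML and control libraries that overlapped. The other lower members were Per1, Rora and Csnk1e, at -1.46 (SE 0.62), -0.75 (SE 0.33) and -1.43 (SE 0.51), and without ML 9 Usp2 was among the higher ones, at 1.25 (SE 0.53). The time of day at which each liver was taken is not in the labels, so its part in these values was not tested.

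A smaller set of genes was above the controls in every ML liver, with or without ML 9. Odc1, the first enzyme of polyamine synthesis (ENSMUSG00000011179, chromosome 12, 17544794 to 17551505), was at 75.4, 65.0, 61.2 and 46.1 CPM in controls and 109, 189 and 153 CPM in ML. Every ML library was above every control, and the log2 fold change was 1.28 (SE 0.31), or 1.09 (SE 0.31) without ML 9. Amd1, another enzyme of polyamine synthesis, was at 24.4, 22.3, 27.7 and 20.2 CPM in controls and 44.2, 10.4 and 56.1 CPM in ML. ML 8 and ML 10 were above the controls and ML 9 was under them, giving 0.64 (SE 0.46) with ML 9 and 1.10 (SE 0.30) without it. Keg1, a glycine acyltransferase-like gene of kidney and liver, was at 168, 135, 98.5 and 185 CPM in controls and 283, 396 and 312 CPM in ML, at 1.17 (SE 0.29), or 1.04 (SE 0.29) without ML 9. Nrep was at 28.4, 5.68, 10.0 and 17.5 CPM in controls and 44.2, 49.3 and 97.8 CPM in ML, at 2.05 (SE 0.52), or 2.22 (SE 0.56) without ML 9. For Keg1 and Nrep the groups did not overlap.

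Rgs3, Aqp11, Anxa13, Etfbkmt, Ankrd9 and Mal2 also lay above every control in each ML library and moved little when ML 9 was left out. Their log2 fold changes went from 1.15 to 1.25, 0.96 to 0.88, 1.37 to 1.55, 1.20 to 1.26, 1.08 to 1.08 and 0.73 to 0.89. For others the difference was smaller without ML 9. Mup18, a major urinary protein gene whose near-identical relatives can share its reads, was at 131, 33.5, 81.5 and 58.7 CPM in controls and 151, 2659 and 134 CPM in ML, and went from 3.69 (SE 0.95) to 0.92 (SE 0.50) without ML 9. Jagn1, Rnf186, Smim22, Ptgis, Thy1 and Zfp637, which were above every control in each ML library, went from 1.17 to 0.77, 1.43 to 0.81, 1.71 to 0.92, 1.62 to 0.82, 1.41 to 0.98 and 1.31 to 0.72. The glucuronosyltransferase Ugt1a9 and the membrane protein Prom1 were named without ML 9 only. Ugt1a9 was at 5.93, 12.3, 12.1 and 5.13 CPM in controls and 24.1, 2.02 and 24.8 CPM in ML, and Prom1 at 0.855, 0.637, 1.01 and 0.762 and 3.76, 0.978 and 1.05 CPM.

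Lists of lipid handling showed little once ML 9 was left out. The lipid droplet and uptake genes had a median of 0.15, or -0.09 without ML 9. Of the 25 lipoprotein genes 7 were higher at an unadjusted p under 0.05, or 1 without ML 9 (all genes 8.81% and 0.928%). Among single genes on the higher side, G0s2, an inhibitor of triglyceride lipase, was at 126, 49.7, 42.5 and 14.3 CPM in controls and 98.7, 700.3 and 260.4 CPM in ML, with control 1 above ML 8, at 2.61 (SE 0.70), or 1.64 (SE 0.65) without ML 9. Apoa4, an apolipoprotein that rises with hepatic triglyceride, was at 106, 141, 203 and 60.1 CPM in controls and 253, 553 and 416 CPM in ML, without overlap, at 1.67 (SE 0.55), or 1.40 (SE 0.60) without ML 9. Acot3, a peroxisomal thioesterase, was at 8.09, 7.41, 3.80 and 1.52 CPM in controls and 7.46, 34.4 and 27.9 CPM in ML, where ML 8 lay within the controls. The 32 tested genes of fatty acid oxidation and PPARA targets had a median of 0.16, or 0.16 without ML 9, -0.06 without ML 10 and 0.36 without control 2. At an unadjusted p under 0.05, 3 of the 32 were higher and 2 lower (all genes 8.81% and 7.33%). Without ML 9 there were 1 and 1 (all genes 0.928% and 3.44%). With all libraries the higher ones were Acot3, Acot4 and Slc25a20, at 2.16 (SE 0.58), 1.10 (SE 0.39) and 0.91 (SE 0.37). Pdk4 was among the lower ones.

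Dmbt1 and Tff2, secreted proteins of mucosal epithelia, gave the largest log2 fold changes among the named higher genes and rested on few counts in some libraries. Dmbt1 had 0, 8, 7 and 0 counts in controls and 3846, 156 and 13 counts in ML, or 0, 0.204, 0.181 and 0 and 101, 10.2 and 0.403 CPM. ML 8 stood far above ML 9, and ML 9 above ML 10, and the log2 fold change of 8.42 (SE 1.57) was 8.88 (SE 1.60) without ML 9 and 5.59 without ML 8. Tff2 had 2, 4, 3 and 5 counts in controls and 41, 103 and 14 counts in ML, or 0.114, 0.102, 0.0776 and 0.112 and 1.08, 6.72 and 0.434 CPM. ML 9 was the highest, and the log2 fold change was 4.69 (SE 0.85), or 2.89 (SE 0.56) without ML 9. Both genes are on the list of gut and gastric epithelium markers, whose other tested members, Tff3 and Lgals4, overlapped between groups, and 4 of the 8 had too few counts to be tested. Among those, Muc5ac was at 0 in every library, and Gkn1 and Gkn2 were at 0 in the 3 ML libraries. The summed level of that list was 7.98 to 37.0 CPM in controls and 115, 63.8 and 8.78 CPM in ML 8, ML 9 and ML 10.

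Bile duct keratins were above the controls in ML 8 and ML 9. Krt19 was at 0.285, 0.560, 0.673 and 1.39 CPM in controls and 11.6, 3.72 and 0.589 CPM in ML, and Krt7 at 0.798, 0.331, 0.336 and 0.404 and 3.05, 1.96 and 0.775 CPM. Muc1, a membrane mucin, was at 0.342, 0.535, 0.492 and 0.807 CPM in controls and 3.84, 0.978 and 0.341 CPM in ML. For each of the 3, ML 8 was the highest library and ML 10 lay within or beside the controls. Their log2 fold changes were 2.83 (SE 0.79), 2.08 (SE 0.55) and 1.65 (SE 0.66), and without ML 8 they were 1.49, 1.55 and 0.20. The duct markers Epcam, Sox9 and Spp1 overlapped between groups, at 0.54 (SE 0.56), -0.49 (SE 0.54) and -0.26 (SE 0.45). Of the 8 duct markers listed, 6 had enough counts to be tested. The summed level of the list was 29.3 to 56.4 CPM in controls and 22.6 to 71.3 CPM in ML. The part of duct cells in these values was not tested, and in whole liver more cells of a type and more RNA per cell cannot be told apart.

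**Figure D4:**
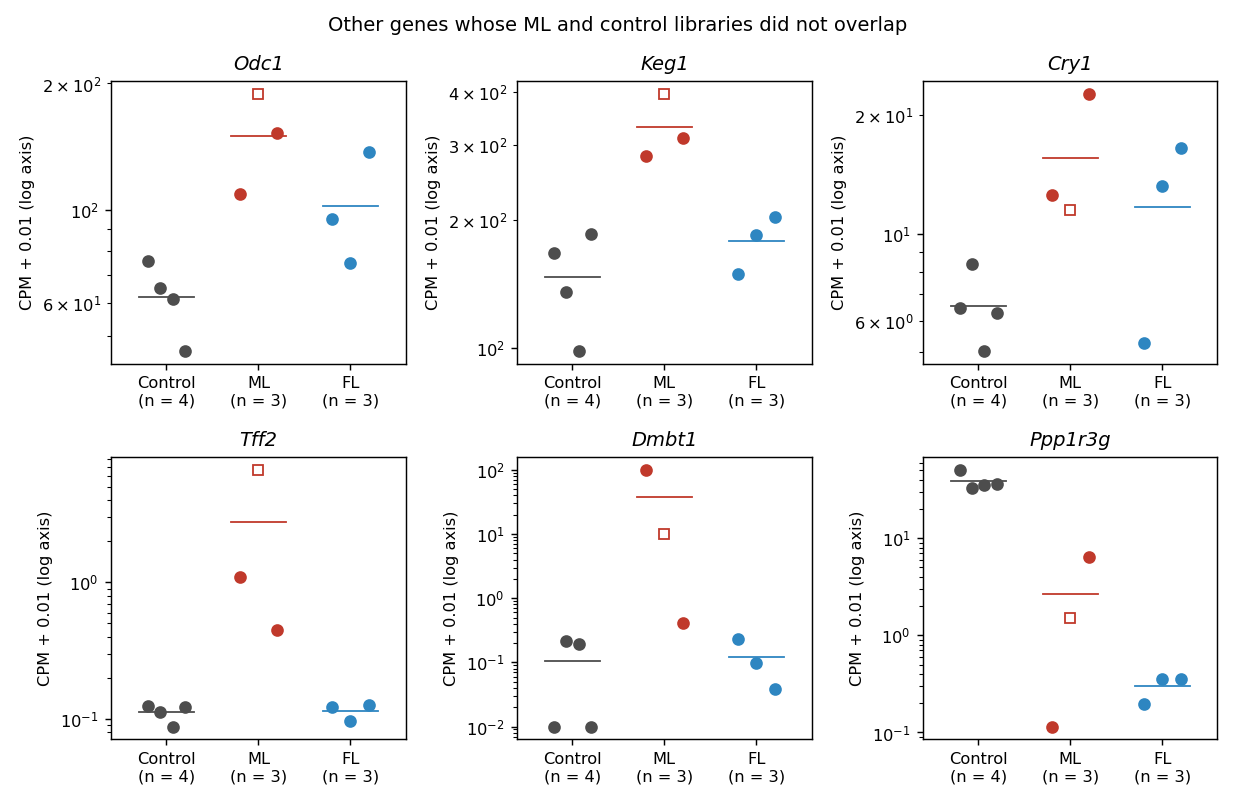
CPM plus 0.01 (log axis) of 6 further genes in each library; points are libraries, the open square is ML 9 and lines are group means. Odc1, Keg1, Cry1, Tff2 and Dmbt1 lie above the controls in each ML library and Ppp1r3g lies under them, while Dmbt1 spans 0.403 to 101 CPM within ML.

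Ribosomal protein and oxidative phosphorylation genes were high in ML 9 and much less so in the other ML livers. All 75 tested genes of cytosolic ribosomal proteins lay above 0 at a median of 1.57, 64 of them at an unadjusted p under 0.05. Of all genes, 8.81% were higher at such a p. Without ML 9 all 75 still lay above 0, but at a median of 0.33 and with 0 at an unadjusted p under 0.05. Rpl26, a protein of the large subunit, was at 365, 149, 152 and 145 CPM in controls and 224, 1699 and 340.4 CPM in ML. Control 1 was well above the other controls, and ML 9 was far above all. Of the 57 tested nuclear genes of oxidative phosphorylation, 54 lay above 0 at a median of 1.13, 33 at an unadjusted p under 0.05, against a median of 0.31 and 0 genes without ML 9. Atp5o, a subunit of ATP synthase, was at 248, 142, 131 and 146 CPM in controls and 177, 950.4 and 277 CPM in ML. With control 1 and ML 9 both left out, 66 of 75 ribosomal genes had an unadjusted p under 0.05 on the higher side at a median of 0.90, and 42 of 57 oxidative phosphorylation genes at 0.69, where 12.4% of all genes did so. Leaving out control 1 alone moved these counts to 71 and 50 genes, where 2668 of all 14758 genes tested were higher at such a p. Without control 2, control 3 or control 4 there were 29, 29 and 28 ribosomal genes and 18, 11 and 15 oxidative phosphorylation genes. Of all genes tested in these fits, 583 of 14550, 544 of 14723 and 544 of 14504 were higher at such a p.

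Long genes of chromatin and matrix lay lower. Of 47 tested chromatin regulators, 45 lay below 0 at a median of -0.81, 17 at an unadjusted p under 0.05 (all genes 7.33%). The median was -0.59 without ML 9, with 7 such genes (all genes 3.44%), and -0.34 with the trend removed. The count was 28 without control 1, 9 without control 2 and 11 without control 4. Of all genes tested, 2509 of 14758, 510 of 14550 and 570 of 14504 were lower at such a p in these 3 fits. Kmt2a, a histone methyltransferase, was at 3.13, 20.8, 13.7 and 24.2 CPM in controls and 4.05, 2.35 and 3.38 CPM in ML, where control 1 was as low as the ML libraries, at -2.24 (SE 0.63), or -1.41 with the trend removed. Kmt2d showed the same arrangement at 6.44, 71.8, 44.8 and 81.3 CPM in controls and 11.7, 5.80 and 10.9 CPM in ML. Crebbp, a coactivator of CREB, was at 15.7, 35.9, 33.2 and 39.3 CPM in controls and 12, 15.3 and 14.1 CPM in ML, just without overlap, at -1.17 (SE 0.36), or -0.45 with the trend removed.

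Of 44 tested TGF-beta and matrix genes, 37 lay below 0 at a median of -0.60, or -0.44 without ML 9 and -0.30 with the trend removed. The 9 genes lower at an unadjusted p under 0.05 (all genes 7.33%) became 4 without ML 9 (all genes 3.44%). They also became 4 without ML 10, where 623 of all 15326 genes tested were lower at such a p. They became 17 without ML 8 and 15 without control 1, where 1050 of 15245 and 2509 of 14758 genes tested were lower at such a p. Fn1, fibronectin, which hepatocytes secrete, was at 386, 1563, 1514 and 1033 CPM in controls and 483, 356 and 484 CPM in ML, where control 1 again lay with the ML libraries. Col5a1 and Col4a2, collagen chains, were at -1.93 (SE 0.61) and -1.86 (SE 0.64), and Fst, follistatin, at -1.51 (SE 0.54).

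**Figure D5:**
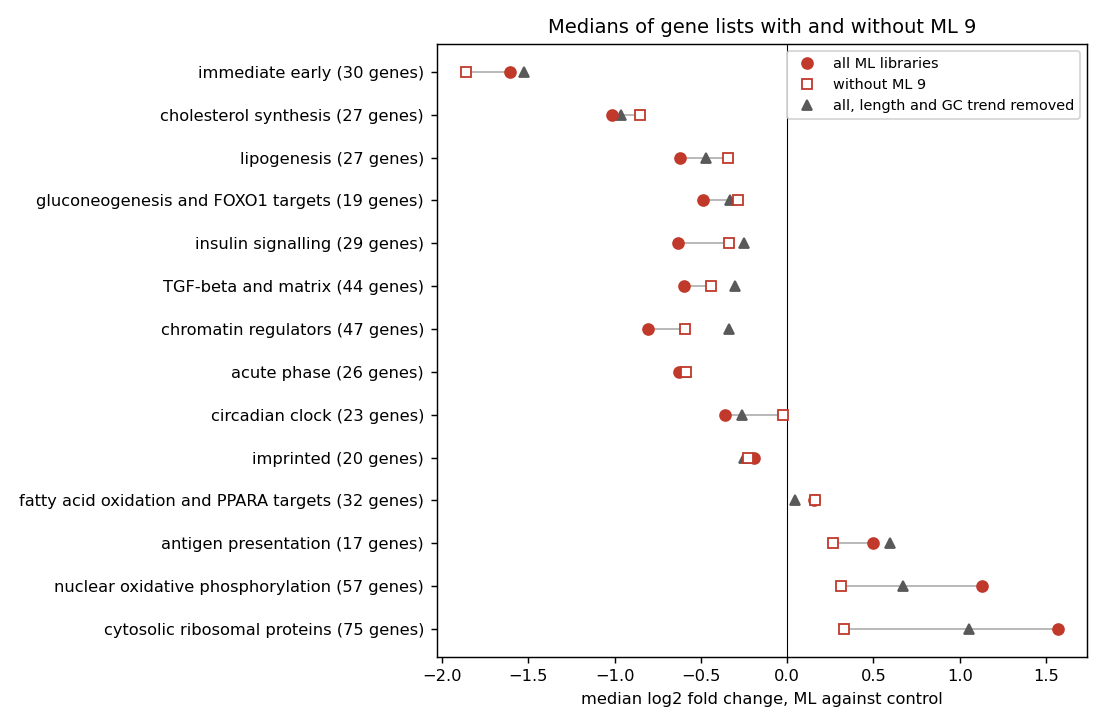
Median log2 fold change of 14 gene lists in ML against control with all ML libraries (filled circles), without ML 9 (open squares) and with all libraries after removal of the length and GC trend (triangles). Immediate early genes are at -1.61, -1.86 and -1.53 in these 3 settings, while ribosomal protein genes go from 1.57 to 0.33.

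Acute phase genes were high in control 2 and, for some, control 3. Of 26 tested, 19 lay below 0 at a median of -0.63. At an unadjusted p under 0.05, 5 were lower (Lcn2, Saa2, Serpina3n, Fgb and Il1rn), where 7.33% of all genes were, and none without control 2 or without ML 9. The count was 12 without control 1, where 2509 of all 14758 genes tested were lower at such a p. It was 3 without ML 8 and 3 without ML 10, where 1050 of 15245 and 623 of 15326 genes tested were. Lcn2, lipocalin 2, was at 1.08, 376, 42.1 and 3.18 CPM in controls and 5.38, 3.65 and 8.06 CPM in ML, and Saa2, serum amyloid A2, at 21.3, 2083, 404 and 14.4 and 24.1, 83.1 and 56.1 CPM. Control 2 was the highest library for both, followed by control 3, and controls 1 and 4 lay under every ML library. Without control 2 the log2 fold change of Lcn2 went from -4.21 (SE 1.56) to -1.43 and that of Saa2 from -3.54 (SE 1.45) to -1.43.

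Antigen presentation genes had a median of 0.50 over 17, with 8 higher at an unadjusted p under 0.05 (all genes 8.81%). Without ML 9 the median was 0.27 with 0 higher. Without both control 1 and ML 9 the median was 0.53, with 7 higher (all genes 12.4%). H2-Eb1, a class II chain, was at 24.7, 18.8, 15.9 and 17.1 CPM in controls and 38.6, 114 and 20.5 CPM in ML, and Psmb8, an immunoproteasome subunit, at 39.7, 16.8, 27.4 and 21 and 35.8, 158 and 38.3 CPM, ML 9 being the highest for both. Kupffer, erythroid and T and NK cell markers also peaked in ML 9, as did most of the cell type lists, the hepatocyte markers among them. At an unadjusted p under 0.05, 2 of 9 Kupffer, 3 of 5 erythroid and 4 of 10 T and NK cell markers tested were higher (all genes 8.81%). With the trend removed, 0 Kupffer, 0 erythroid and 2 T and NK cell markers were, as were 1092 of all 14820 genes. The 9 Kupffer cell markers summed to 289 to 536 CPM in controls and 467, 1361 and 296 CPM in ML 8, ML 9 and ML 10. Erythroid markers summed to 184 to 626 CPM in controls and 313, 2115 and 382 CPM in ML. The part of blood and immune cells in the values of ML 9 was not tested. Endothelial markers summed to 221 to 271 CPM in controls and 171 to 306 CPM in ML.

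Since the groups differ by parent, imprinted genes, which are expressed from 1 parental copy, were examined as a list. Of 26 listed genes, 20 were tested, 11 lay below 0 and the median was -0.19, or -0.23 without ML 9. Those at an unadjusted p under 0.05 were Peg3, Igf2r, Plagl1 and Impact, all lower, where 7.33% of all genes were lower at such a p. Without ML 9 none of the 4 did so and Phlda2 did, on counts of 2, 3, 2 and 1 in controls and 11, 0 and 6 in ML. Without control 2, control 4, ML 8 or ML 10 there were 2, 1, 2 and 1 lower genes. Of all genes tested in these fits, 510 of 14550, 570 of 14504, 1050 of 15245 and 623 of 15326 were lower at such a p. Igf2r, the maternally expressed receptor that clears IGF2, was at 23.9, 41.0, 52.2 and 44.7 CPM in controls and 27.3, 14.0 and 24.5 CPM in ML, where control 1 lay among the ML libraries. Peg3, a paternally expressed zinc finger gene, was at 1.71, 4.02, 2.20 and 3.43 CPM in controls and 1.71, 1.17 and 1.40 CPM in ML, at -0.99 (SE 0.39), or -0.38 with the trend removed. Impact and Plagl1 were at -1.11 (SE 0.51) and -1.20 (SE 0.53).

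Genes whose level differs between the sexes in mouse liver, under growth hormone control, had medians that moved with the libraries left out. The 26 tested male-biased genes had a median of 0.35, or 0.16 without ML 9, and the 14 tested female-biased genes 0.70, or 0.23. With control 1 and ML 9 both left out the medians were 0.19 and 0.64. Without ML 9, 0 of 26 male-biased and 2 of 15 female-biased genes were higher at an unadjusted p under 0.05 (all genes 0.928%). Elovl3, a male-biased fatty acid elongase, was at 169, 406, 147 and 508 CPM in controls and 84.3, 101 and 157 CPM in ML. ML 8 and ML 9 lay under the controls and ML 10 within them, at -1.43 (SE 0.46), or -1.33 (SE 0.53) without ML 9. Mup20, a pheromone of male urine, was at 7158, 1672, 3703 and 1826 CPM in controls and 4028, 28643 and 7383 CPM in ML, with a log2 fold change of 1.90 (SE 0.66), or 0.68 (SE 0.55) without ML 9. Igfals, the acid-labile subunit that carries IGF1, was at 47.5, 54.4, 77.6 and 86.3 CPM in controls and 99.6, 147 and 93.7 CPM in ML, and Stat5b, the factor that growth hormone activates, at 38.9, 44.7, 48.3 and 63.6 and 33.9, 25.4 and 33.6 CPM. Neither overlapped between groups, and their log2 fold changes were 0.77 (SE 0.31) and -0.66 (SE 0.27). Of the 36 cell cycle genes tested, 28 lay below 0 at a median of -0.56, or -0.49 without ML 9, -0.21 without control 3 and -0.94 without ML 8. Foxm1, a factor of the division programme, had 2, 19, 74 and 24 counts in controls and 7, 0 and 1 counts in ML.

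The ML livers were also set beside those of the offspring of LIRKO fathers, within the same fit. Between ML and FL 1 gene passed in edgeR's quasi-likelihood test (0.00675% of all genes), and 2964 had an unadjusted p under 0.05 (20%). It was Cyp2b9, a cytochrome P450 of drug metabolism with female-biased expression (ENSMUSG00000040660, chromosome 7, 26173411 to 26210661). Its counts were 433, 67 and 557 in ML and 3, 5 and 1 in FL, or 11.4, 4.37 and 17.3 and 0.111, 0.145 and 0.0291 CPM, and the controls were at 8.03, 7.31, 5.85 and 14.6 CPM. ML and controls overlapped and FL lay under both. It was higher in ML than in FL by a log2 fold change of 6.81 (SE 0.74), with an edgeR adjusted p of 0.0144, or 0.00387 without ML 9. It did not pass without FL 5, FL 6, FL 7 or ML 8, where no gene did. Reads of related Cyp2b genes may be shared with it. Moxd1, a monooxygenase-like gene, had 21, 1 and 1 counts in ML and 1584, 1820 and 5477 in FL, and missed the threshold with an edgeR adjusted p of 0.0644, or 0.567 without ML 9.

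Several genes that separated ML from control are given here with their FL levels, and none of them passed between ML and FL. Egr1 was at 6.59, 26.6 and 0.903 CPM in FL 5, FL 6 and FL 7 against 0.893, 0.456 and 1.43 CPM in ML, so that ML minus FL was -3.57 (SE 1.03) on the log2 scale. Nr4a1 was at 0.963, 3.36 and 0.874 CPM in FL, and -1.06 (SE 0.61) in ML against FL. Fasn was at 452, 274 and 169.6 CPM in FL, of which FL 7 alone lay under the control range, and -2.04 (SE 0.58) in ML against FL. Bhlhe40 was at 202, 120.2 and 112 CPM in FL, of which FL 5 alone lay above the control range, and -1.95 (SE 0.49). Elovl5 was at 143, 103 and 126 CPM in FL, which overlapped ML, and 0.05 (SE 0.41). Ppp1r3g was at 0.185, 0.347 and 0.349 CPM in FL, between ML 8 and ML 9, and 3.15 (SE 0.97). Odc1 was at 94.9, 74.6 and 137 CPM in FL, which overlapped ML, and 0.55 (SE 0.33). Every FL library also lay under every control for Egr1, Nr4a1, Elovl5 and Ppp1r3g. The same held for Jun, at 25.1, 25.1 and 12.3 CPM in FL, Gdf15, at 3.59, 13.3 and 3.12 CPM, and Rgs1, at 1.22, 1.19 and 0.874 CPM. For Fos, FL 6 at 4.84 CPM lay within the control range, as did FL 7 for Scd1, at 2745 CPM. ML and FL are each compared with the same 4 controls, so shared directions against control are not independent.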

How the data were processed

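Per the labels' protocols, strand-specific libraries were prepared from polyadenylated liver RNA and run on an Illumina HiSeq. The authors used STAR, featureCounts and GRCm38, per the submitters' processing notes; for versions, annotation and strand the sources used here give nothing, so overlapping, antisense and near-identical genes are uncertain. The deposited values are raw counts of reads per gene. Of the 46071 rows, 45229 matched GENCODE M21 on GRCm38, which gave symbols, coordinates and exon lengths; the other 842 held at most 0.0659% of a library's counts.

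Genes were tested with edgeR 4.0.16 in R 4.3.3 over all 10 libraries, a coefficient per group: TMM factors, filterByExpr (min.count 10), a robust two-sided quasi-likelihood F test, 7 residual degrees of freedom, and Benjamini-Hochberg adjustment over all genes tested (threshold 0.05). The common biological coefficient of variation was 0.448. The standard error (SE) is the log2 fold change divided by the square root of F. Alternatives were DESeq2 1.42.0, limma-voom (limma 3.58.1), RLE and upper-quartile factors, no filter, a minimum of 50, the compared groups alone, removing each library's trend with exon length and GC, and leaving out libraries. The procedure was tested on simulated data. Chi-square over degrees of freedom, for counts of 2 libraries of one group, was 87.6 to 612. Counts of 1 library sequenced in 2 runs would give a value near 1.

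The comparison, the 45 gene lists and the naming rule were chosen with earlier results of these data known. The rule took up to 15 genes per direction with the lowest p, no overlap and a mean of at least 1 CPM, with and without ML 9, up to 4 members per list described, the members of lists of 12 or fewer, and Insr. Junb, Btg2, Dusp6, Ier5, Acly, Acss2, Nr1h3, Agpat2, Srebf1, Msmo1, Ebp, Tm7sf2, Cyp2b9, Moxd1, Per1, Rora, Csnk1e, Usp2, Il1rn and Slc25a20 were named after their values were seen. The results of some genes taken by the rule are not reported here. Promoters came from RefSeq (GRCm38.p6).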

Additional observations from a re-analysis of the deposited data

Results flagged for a closer look

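In 8 of the 114 genes named or examined, 1 control stood apart from the other 3 by Dixon's criterion at its 95% level for 4 samples; by chance about 1 in 20 groups does. Control 2 was apart for Btg2, at 224 CPM against 10.8 to 39.4 CPM in the other controls, for Lcn2, at 376 CPM against 1.08 to 42.1 CPM, and for Il1rn, at 10.1 CPM against 1.43 to 2.74 CPM. Control 1 was apart for the short transcripts Rpl26, at 365 CPM against 145 to 152 CPM, and Atp5o, at 248 CPM against 131 to 146 CPM, and for Krt7, at 0.798 CPM against 0.331 to 0.404 CPM. Control 3 was apart for Tff3, at 4.37 CPM against 0.336 to 0.866 CPM, and for Moxd1, at 0.518 CPM against 0.0448 to 0.0570 CPM. Groups of 3 libraries were not examined this way.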

How the results depend on the processing

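No gene passed between ML and control with limma-voom, RLE or upper-quartile factors, a minimum count of 50, the compared groups alone or the trend removed; DESeq2 called 56, edgeR without a filter 3, and leaving out 1 library gave 0 to 1. The 2392 genes at an unadjusted p under 0.05 became 1418 with limma-voom, 1480 in the compared groups alone (560 there without ML 9), 4188 without control 1 and ML 9, 767 with the trend removed and without ML 9, and 669 to 5177 with 1 library left out. Without ML 9 the split of these genes went from 1306 higher and 1086 lower to 142 and 527. The 1 gene between ML and FL became 31 with DESeq2, 2 without a filter, 0 in the compared groups alone, 2 with the trend removed, 0 to 1 with 1 library left out, and 7 in the compared groups alone without ML 9; limma-voom called Moxd1 and not Cyp2b9. Of the 114 genes examined, 107 kept the sign of their ML against control difference in every alternative run. Many were chosen for a low p and no overlap in these same data, so their sign could hardly change. The count of 107 is therefore no independent support. The exceptions overlapped between groups: without ML 9, Ebp was at -0.10, Tm7sf2 at -0.24 and Spp1 at 0.11; in the compared groups alone without ML 9 they were at -0.11, -0.25 and 0.10; without control 1 and ML 9 at -0.11, -0.058 and 0.20; and with the trend removed and without ML 9, Ebp was at -0.12 and Tm7sf2 at -0.19. Without ML 8, Epcam was at -0.22 and Moxd1 at -1.94, and without ML 10 Cyp2b9 was at -0.18. With 1 library left out at a time, the values ran from -0.10 to 0.41 for Ebp, -0.24 to 0.56 for Tm7sf2, -0.70 to 0.11 for Spp1, -0.22 to 0.89 for Epcam, -1.94 to 2.20 for Moxd1, -0.18 to 0.69 for Cyp2b9 and -0.58 to 1.33 for Ppp1r3c, whose lowest value came without ML 10. The cause of these changes was not tested. No paired analysis was possible because the replicate numbers run over the whole series and groups share none. Low counts limit Fosb, Foxm1, Tff2 and Dmbt1 most.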
